A study of Mus musculus with 2 samples.

Results

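The immediate early genes and the heat shock genes are 2 sets of stress-responsive genes that were read here in cells from mouse vein grafts. They were chosen by symbol: 37 of the 32285 genes in the deposited count tables, 27 immediate early and 10 heat shock, and all 37 were found, each on 1 row. A vein graft is a vein set into the arterial circulation, and the series compared conventional grafts with No-Touch grafts. In surgery the No-Touch technique takes the vein together with its surrounding tissue and with little handling. Both groups were C57BL6/J mice of 10-12 weeks, and no transgene or drug is given for either group. Each group had 1 library of live, nucleated cells sorted as negative for CD45, the marker of blood-lineage cells, and sequenced by 10x 3' single-cell RNA-seq. The labels do not say how many grafts or animals went into each library.

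Immediate early genes are transcribed within minutes of a signal, without new protein synthesis. Growth factors, calcium or stress act through ERK and p38 kinases on the factors SRF, the ternary complex factors and CREB, which are already bound at these genes. Heat shock genes are driven by another route: unfolded protein draws chaperones away from the factor HSF1, which then binds heat shock elements, runs of the inverted repeat nGAAn. Both sets respond to wounding, stretch and flow in vessel walls, and both are also switched on by warm enzymatic dissociation. All cells here passed through papain, then papain with collagenase I and dispase II, at 37 °C, and no undigested or ungrafted vein is among the libraries. Response to digestion and response to grafting therefore cannot be told apart in the levels below.

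Motif matches near the start site differed between the 2 sets, and 7 stretches that hold such matches are printed here. RefSeq promoter windows on GRCm38.p6, the build named mm10 in the submitters' notes, run from 250 bases before to 50 after the start and matched 30 of the 37 genes, 22 immediate early and 8 heat shock. Both strands were searched. Fosl1, Egr1, Egr3, Ier2, Myc, Hspa8 and Hsp90aa1 had no window and were not searched. Bases beyond the windows were not searched for any gene, so a motif not found here may lie further away. The heat shock element, searched as GAA, TTC and GAA or as TTC, GAA and TTC with any 2 bases between neighbouring units, was found in 3 of 8 heat shock genes (Hspd1, Hspe1 and Hsph1), in 0 of 22 immediate early genes and in 0.662% of all 27025 genes with a window. The Hspd1 and Hspe1 matches are the same bases read on opposite strands, so 1 element is counted for both. With 1 mismatch allowed it was found in 7 of 8, in 1 of 22 and in 8.15% of genes. The EGR site, GCGNGGGCG, was in 9 of 22 immediate early genes and 6.27% of all genes, and the windows are not matched for GC content. The CArG box, which SRF binds, was in Egr2 and Zfp36 and in 1.81% of genes. A cAMP response element, TGACGTCA, was in Btg2, Dusp1 and Maff and in 2.03% of genes. The AP-1 site, TGANTCA, was in 0 of the 30 members matched and in 8.97% of genes. The TATA box, TATAAA, was in 5 immediate early genes and 15.7% of genes. A match here is a match of letters, not a measured site.

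For Fos, Gadd45b, Hspa1a and Hspa1b the 250 bases before the start are given, and for the others only the stretch around the motif, all 5′ to 3′ on the gene's own strand. Fos (chr12:85473640-85473889, plus strand) has the TATA box in capitals, 33 bases before the start. Gadd45b (chr10:80929841-80930090, plus strand) has a TATA box and an EGR site in capitals, 46 and 30 bases before it. For Zfp36 (chr7:28379267-28379296, minus strand) the capitals mark the CArG box, 58 bases before the start. Hspa1a (chr17:34972157-34972406) and Hspa1b (chr17:34959239-34959488), both on the minus strand, carry in capitals the heat shock element with 1 mismatch, in 2 overlapping frames that begin 114 bases before the start. The element of Hspe1 (chr1:55088059-55088076, plus strand) begins 89 bases before the start, and that of Hsph1 (chr5:149636288-149636300, minus strand) lies 15 or 36 bases past its 2 annotated starts.
Fos: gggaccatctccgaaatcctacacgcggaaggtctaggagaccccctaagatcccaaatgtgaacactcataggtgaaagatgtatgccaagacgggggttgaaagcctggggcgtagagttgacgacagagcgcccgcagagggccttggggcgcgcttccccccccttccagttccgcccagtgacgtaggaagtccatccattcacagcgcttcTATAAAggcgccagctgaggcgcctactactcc
Gadd45b: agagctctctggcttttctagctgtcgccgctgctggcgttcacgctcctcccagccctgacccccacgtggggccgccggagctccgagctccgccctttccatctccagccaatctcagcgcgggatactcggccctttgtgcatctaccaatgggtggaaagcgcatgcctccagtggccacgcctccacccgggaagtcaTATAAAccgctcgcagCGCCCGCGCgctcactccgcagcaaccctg
Zfp36: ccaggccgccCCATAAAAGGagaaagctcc
Hspa1a: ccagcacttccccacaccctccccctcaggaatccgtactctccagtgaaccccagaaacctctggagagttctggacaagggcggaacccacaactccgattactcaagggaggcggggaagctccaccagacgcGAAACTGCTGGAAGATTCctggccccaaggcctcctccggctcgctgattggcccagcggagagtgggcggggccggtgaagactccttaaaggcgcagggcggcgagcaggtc
Hspa1b: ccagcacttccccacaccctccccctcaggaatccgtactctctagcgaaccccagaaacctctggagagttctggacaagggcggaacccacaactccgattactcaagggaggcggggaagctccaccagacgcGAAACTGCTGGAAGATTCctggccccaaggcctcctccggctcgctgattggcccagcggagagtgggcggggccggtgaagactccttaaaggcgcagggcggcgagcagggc
Hspe1: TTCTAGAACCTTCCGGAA
Hsph1: TTCTGGAAAGTTC
The Hspa1a and Hspa1b windows were the same at 296 of 300 bases, and the motif was the same in both. Their longest open reading frames were 99.5% identical over 1929 bases, while the last 400 bases of the transcripts, where 3' tags fall, were 60.5% identical. No label states how reads shared by the 2 genes were treated, so the split between them is uncertain. Hspd1 and Hspe1 start 111 bases apart on opposite strands and their first exons overlap in the annotation.

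After filtering, 9462 conventional and 10377 No-Touch cells were kept, with median UMIs per cell of 16191 and 27385. A UMI marks 1 captured transcript, so the levels, in UMIs per 1000000 UMIs of a class (CPM), need no correction for gene length. Classes were set by a gate on marker genes, and 6 had at least 100 cells in both libraries: fibroblasts (5957 conventional and 8052 No-Touch cells), pericytes (582 and 226), smooth muscle (353 and 304), blood endothelium (799 and 374), lymphatic endothelium (309 and 281) and Schwann cells (177 and 277). Neutrophils (291 and 54), mononuclear phagocytes (60 and 92), conventional epithelial cells (158) and No-Touch T or NK cells (117) are given as levels alone, and the first, second and last of these are CD45-positive types that the sort should remove. Neutrophils had a median of 2589 UMIs in the conventional library, so their levels rest on the shallowest cells. The gate left 743 and 559 cells without a class. Leading genes of the 10 classes held their own markers. Pericytes and smooth muscle lie close together: a second class scored over 0.5 times the first in 377 of 582 and 141 of 226 pericytes and in 235 of 353 and 114 of 304 smooth muscle cells.

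Several features set the libraries apart. Xist, expressed from the inactive X of female cells, was at 164.5 CPM in the conventional and 0.106 CPM in the No-Touch library, while 4 Y-linked genes summed to 126 and 185.4 CPM. In conventional fibroblasts 965 cells had Xist UMIs and no Y-linked UMI, and 3846 had the reverse. In No-Touch fibroblasts these counts were 2 and 7672. The conventional library thus held cells of more than 1 animal. Whether they come from pooled mice or from vein and host was not tested. The epithelial marker list, with the parathyroid hormone gene Pth, summed to 243.4 to 314.6 CPM over the 6 conventional classes and to 17.2 to 51 CPM over the No-Touch ones. The libraries shared 22 cell barcodes. With 1 library per group there is no replicate spread and no test: intervals are exact Poisson or binomial 95% intervals that cover counting error only, and a ratio compares these 2 libraries.

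Immediate early transcripts were abundant in every class. The 27 genes together took 3.46% of all UMIs in conventional fibroblasts and 3.52% in No-Touch fibroblasts. Their share was 2.94% and 2.74% in pericytes, 2.91% and 3.83% in smooth muscle, 2.34% and 2.77% in blood endothelium, 2.57% and 3.18% in lymphatic endothelium and 3.12% and 2.95% in Schwann cells. It was 1.05% in No-Touch T or NK cells, the lowest of the class and library pairs shown. The 10 heat shock genes took 0.711% and 0.588% in fibroblasts, 0.755% and 1.03% in lymphatic endothelium and 0.512% and 0.369% in Schwann cells. No-Touch T or NK cells had Fos at 412, Jun at 419, Egr1 at 383 and Hspa1a at 82.6 CPM. The levels in the 6 classes compared were above these in the same library. The conventional library held 4 T or NK cells, too few for the same comparison. The part of free RNA in the levels was not tested in either library.

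**Figure D1:**
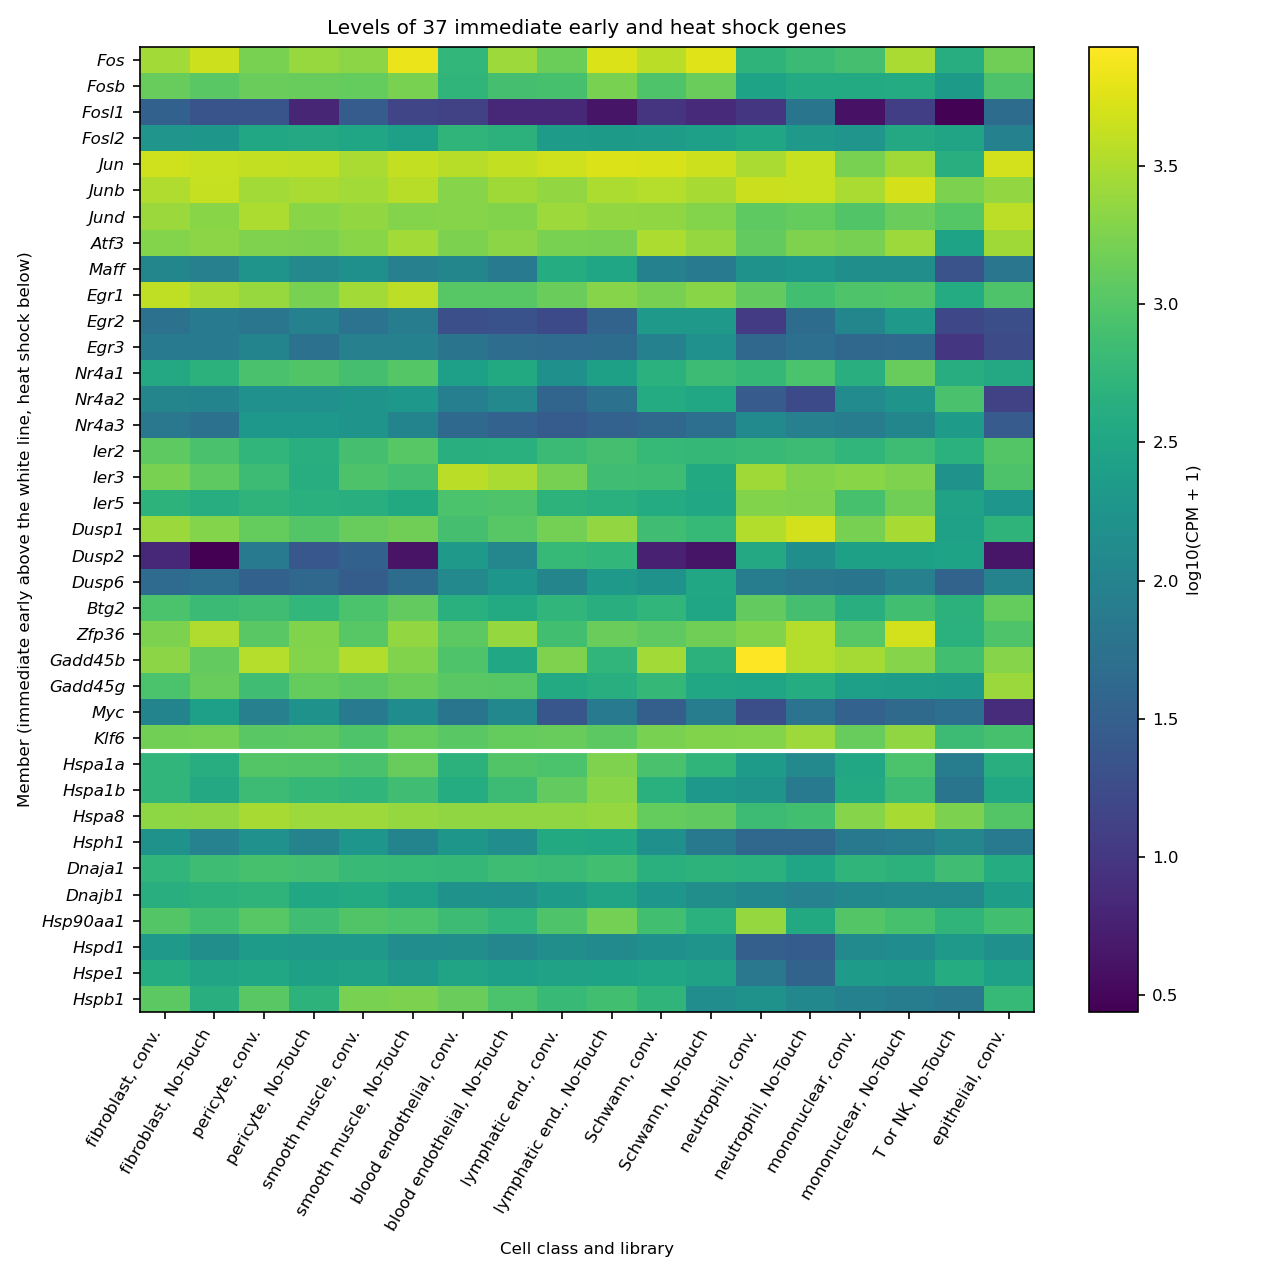
Levels of the 37 genes, as log10 of CPM + 1, in each cell class and library with at least 50 cells; each column is 1 class of 1 library and the white line parts the 27 immediate early from the 10 heat shock genes. Jun, Junb, Egr1 and Fos are bright in most columns, Dusp2 is bright in lymphatic endothelium, and the T or NK column is dark for most immediate early genes.

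AP-1 is a dimer of a FOS and a JUN family protein, and its genes stand here with those of the related factors Atf3 and Maff. In conventional and No-Touch grafts in turn, Jun was at 4766 and 4383 CPM in fibroblasts, 4122 and 3971 in pericytes, 3034 and 4118 in smooth muscle, 3586 and 4045 in blood endothelium, 4739 and 5514 in lymphatic endothelium and 5235 and 4663 in Schwann cells. Jun was at 3027 and 4389 CPM in neutrophils, 1679 and 2719 in mononuclear phagocytes, 4930.1 in conventional epithelial cells and 419 in No-Touch T or NK cells. Jun thus differed little between the libraries, by log2 ratios of -0.17 to 0.44 over the 6 classes compared (No-Touch over conventional, here and throughout). Fos, its main partner, did differ. In the same order, Fos was at 2813 and 4592 CPM in fibroblasts, 1678 and 2466 in pericytes, 2117 and 6659 in smooth muscle, 567 and 2604 in blood endothelium, 1406 and 5556 in lymphatic endothelium and 3699 and 5662 in Schwann cells. Fos was at 519.6 and 666 CPM in neutrophils, 799.8 and 3101 in mononuclear phagocytes, 1482 in conventional epithelial cells and 412 in No-Touch T or NK cells. Fos was 1.63-fold higher in No-Touch fibroblasts, 3.14-fold higher in smooth muscle, 3.95-fold in lymphatic endothelium and 4.59-fold in blood endothelium (95% interval 4.47 to 4.73). The order of the classes changed with it: blood endothelium had the least Fos of the 6 classes in the conventional library, and pericytes had the least in the No-Touch library.

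Fosb, the nearest relative of Fos, was higher in No-Touch lymphatic endothelium (820 and 1675 CPM) and blood endothelium (529 and 802 CPM) but not in fibroblasts (1320 and 1097 CPM). Fosl1, a FOS protein that lacks the strong activation domain, was low in all classes and lower in No-Touch fibroblasts, pericytes, smooth muscle and blood endothelium, with 32.2 and 20.9 CPM in fibroblasts. Fosl2 was most abundant in blood endothelium (535 and 485 CPM). Junb, which can oppose Jun, lay between 1959 and 4154 CPM in the 6 classes and within 1.5-fold between the libraries in all 6. Jund, the JUN gene with the steadiest expression, had a ratio below 1 in 6 of 6 classes and passed 1.5-fold in pericytes (3129.8 and 2024 CPM). Of the 6 classes compared, Schwann cells had the most Atf3 in the conventional library (3127 CPM). In the No-Touch library smooth muscle had the most (2747 CPM, against 2397 in Schwann cells). Maff, a small MAF protein, was highest in lymphatic endothelium (399 and 320.3 CPM) and its ratio was below 1 in 6 of 6 classes.

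EGR proteins are zinc finger factors downstream of ERK and SRF. Given as conventional and No-Touch, Egr1 was at 3910.2 and 3050.3 CPM in fibroblasts, 2435 and 1671 in pericytes, 2822 and 3827 in smooth muscle, 1043 and 1039 in blood endothelium, 1363 and 1946 in lymphatic endothelium and 1644 and 2046 in Schwann cells. Egr1 was at 1246 and 736 CPM in neutrophils, 928 and 954 in mononuclear phagocytes, 933 in conventional epithelial cells and 383 in No-Touch T or NK cells. Fibroblasts carried the most Egr1 of the 6 classes in the conventional library and smooth muscle in the No-Touch library, blood endothelium the least in both, and no class differed by 1.5-fold between the libraries. Egr2, required for myelination, was highest in Schwann cells (213 and 215 CPM), against 56.6 and 74.9 CPM in fibroblasts. Its ratio was above 1 in 6 of 6 classes and passed 1.5-fold in lymphatic endothelium (15.9 and 34.5 CPM). Egr3 was at 93.7 and 157 CPM in Schwann cells, higher in No-Touch, and at 101 and 54.8 CPM in pericytes, lower in No-Touch.

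NR4A receptors are orphan nuclear receptors made in bursts after stimulation. Conventional and then No-Touch, Nr4a1 was at 349.9 and 486 CPM in fibroblasts, 835 and 965 in pericytes, 791 and 1029 in smooth muscle, 252 and 365 in blood endothelium, 156 and 262 in lymphatic endothelium and 461 and 674 in Schwann cells. Nr4a1 was at 582 and 868 CPM in neutrophils, 441 and 1321 in mononuclear phagocytes, 349.6 in conventional epithelial cells and 409.8 in No-Touch T or NK cells. The ratio of Nr4a1 was above 1 in 6 of 6 classes. Nr4a2 was highest in No-Touch T or NK cells (855 CPM) and next in Schwann cells (379.5 and 329.7 CPM). After thinning cells to 5000 UMIs, a Nr4a2 UMI was found in 83.8% of T or NK cells and 69.1% of No-Touch Schwann cells, against 26.6% of No-Touch fibroblasts (94%, 72.9% and 60.3% before thinning). Of the 6 classes pericytes held the most Nr4a3 (197 and 199 CPM), and smooth muscle was the class where it passed 1.5-fold, lower in No-Touch (177 and 103 CPM).

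IER genes are short, quickly induced genes, of which Ier3 acts on cell survival. Read in the same order, Ier3 was at 1666 and 1151 CPM in fibroblasts, 686 and 413 in pericytes, 891 and 776 in smooth muscle, 3713 and 3098 in blood endothelium, 1659 and 724 in lymphatic endothelium and 691 and 367 in Schwann cells. Ier3 was at 2721 and 1858 CPM in neutrophils, 2022 and 1826 in mononuclear phagocytes, 895 in conventional epithelial cells and 165 in No-Touch T or NK cells. Blood endothelium held the most Ier3 in both libraries. Its ratio was below 1 in 6 of 6 classes and passed 1.5-fold in pericytes, lymphatic endothelium and Schwann cells, with 2.29-fold less in No-Touch lymphatic endothelium (95% interval of the ratio 0.417 to 0.457). Ier2 and Ier5 stayed within 1.5-fold in all 6 classes. Ier5 was highest in neutrophils (1858 and 1795 CPM).

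The MAP kinase phosphatases are the feedback arm: DUSP1 and DUSP2 act in the nucleus on several MAP kinases, and DUSP6 acts in the cytoplasm on ERK. For each class, conventional first, Dusp1 was at 2559 and 1917 CPM in fibroblasts, 1261 and 1003 in pericytes, 1303 and 1470.2 in smooth muscle, 792 and 1062 in blood endothelium, 1573 and 2317 in lymphatic endothelium and 719 and 606 in Schwann cells. Dusp1 was at 3369 and 4954 CPM in neutrophils, 1657 and 2983 in mononuclear phagocytes, 511 in conventional epithelial cells and 269.6 in No-Touch T or NK cells. None of the 6 classes differed by 1.5-fold. Dusp2 was the most class-bound member. It was at 593 and 571 CPM in lymphatic endothelium and 214 and 113 CPM in blood endothelium, against 5.67 and 1.76 CPM in fibroblasts and 4.79 and 3.39 CPM in Schwann cells. A Dusp2 UMI was found in 79.6% of conventional lymphatic endothelial cells thinned to 5000 UMIs (87.4% unthinned) and in 2.48% of conventional fibroblasts (9.1% unthinned). Dusp2 was lower in No-Touch pericytes (77.4 and 23.6 CPM) and smooth muscle (32 and 3.16 CPM). In the same smooth muscle cells the 7 blood endothelial markers summed to 200.7 and 101.8 CPM and the 6 lymphatic ones to 81 and 48 CPM, and in pericytes the blood endothelial list summed to 311.8 and 197.8 CPM and the lymphatic one to 56.5 and 98.2 CPM. The part of endothelial RNA in the Dusp2 ratios was not tested. Dusp6, a common readout of ERK activity, was highest in Schwann cells (172 and 341 CPM). It was higher in No-Touch smooth muscle, blood and lymphatic endothelium and Schwann cells, and its ratio was above 1 in 6 of 6 classes.

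Gadd45b, Gadd45g, Btg2 and Zfp36 slow growth or, for Zfp36 (tristetraprolin), destroy messages with AU-rich elements, Fos among them. With the conventional value first, Gadd45b was at 2103 and 1218 CPM in fibroblasts, 3435 and 1892 in pericytes, 3414 and 1872 in smooth muscle, 924 and 344 in blood endothelium, 1779.6 and 553 in lymphatic endothelium and 2757 and 485 in Schwann cells. Gadd45b was at 8502 and 3439 CPM in neutrophils, 2846 and 1971 in mononuclear phagocytes, 1948 in conventional epithelial cells and 747 in No-Touch T or NK cells. Gadd45b, a stress sensor that feeds the p38 and JNK kinases, was the single most abundant member in conventional neutrophils. It was lower in No-Touch in 6 of 6 classes, by 1.73 to 5.68 times, most in Schwann cells (95% interval of the ratio 0.166 to 0.187). Zfp36 went the other way. It was at 1724 and 3280.5 CPM in fibroblasts, 1081 and 1853 in pericytes, 1062 and 2276 in smooth muscle, 1115 and 2386 in blood endothelium, 741 and 1345 in lymphatic endothelium and 1143 and 1508 in Schwann cells. Zfp36 passed 1.5-fold higher in 5 of 6 classes, with 1.32-fold in Schwann cells. Gadd45g, unlike Gadd45b, was higher in No-Touch fibroblasts (874 and 1329.6 CPM) and pericytes (730.2 and 1276 CPM), and lower in Schwann cells (576 and 341 CPM). Btg2 passed 1.5-fold in Schwann cells alone, where it was lower (542 and 315 CPM).

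Klf6 and Myc are the other transcription factors of the set. Again with conventional first, Klf6 was at 1518 and 1581 CPM in fibroblasts, 1079 and 1129 in pericytes, 933 and 1254 in smooth muscle, 1090 and 1254 in blood endothelium, 1332 and 1116 in lymphatic endothelium and 1714 and 1828 in Schwann cells. Klf6 was at 1939.8 and 2625 CPM in neutrophils, 1305 and 2218 in mononuclear phagocytes, 826 in conventional epithelial cells and 687 in No-Touch T or NK cells. Klf6, induced in injured vessels, stayed within 1.5-fold in all 6 classes. Myc, which drives growth and ribosome production, was far lower in level and was higher in No-Touch in 6 of 6 classes. It was at 101 and 254 CPM in fibroblasts, 90.1 and 170 in pericytes, 71.4 and 137 in smooth muscle, 61.7 and 115 in blood endothelium, 23 and 75.8 in lymphatic endothelium and 30.1 and 78.7 in Schwann cells. The smallest ratio was 1.86-fold, in blood endothelium (95% interval 1.68 to 2.06), and the largest 3.29-fold, in lymphatic endothelium (2.57 to 4.26).

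**Figure D2:**
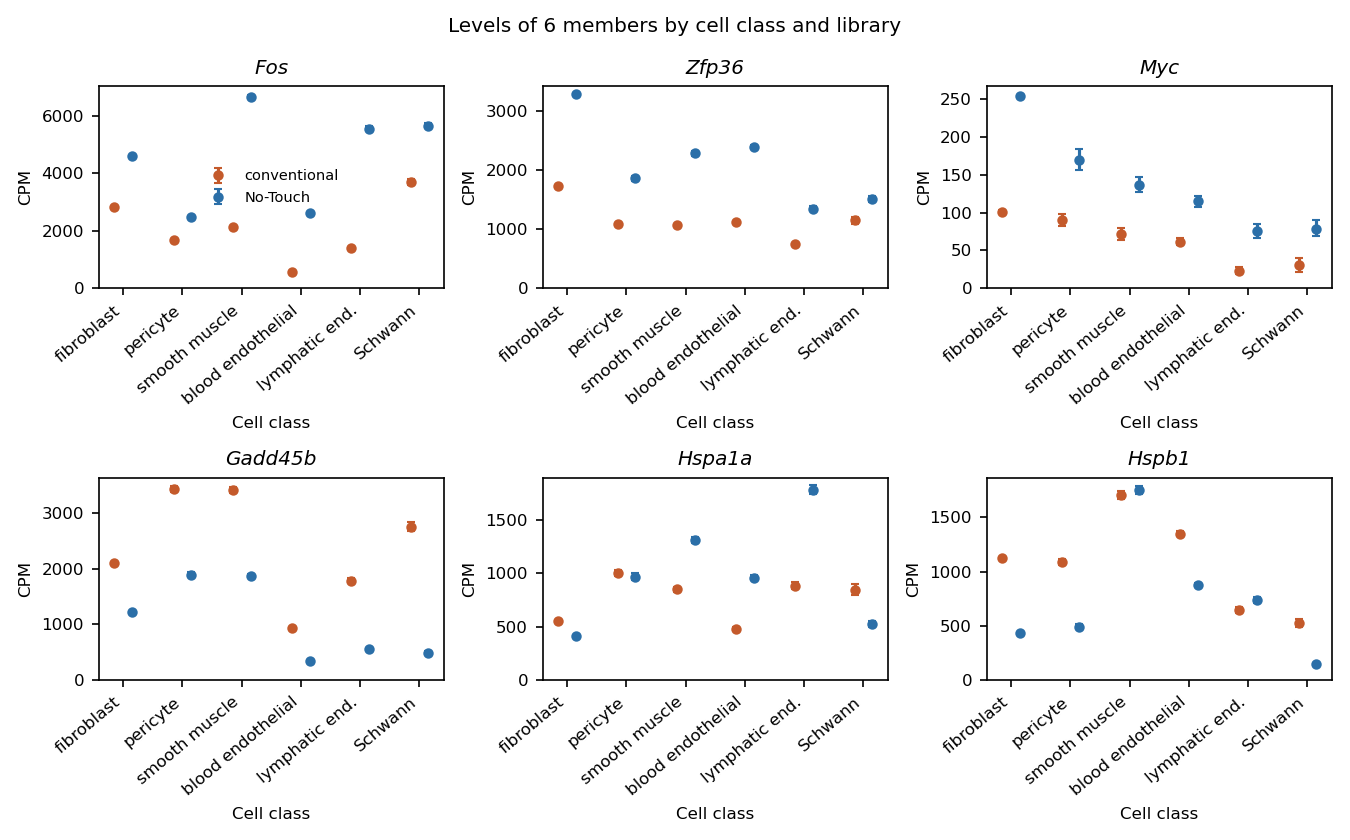
CPM of Fos, Zfp36, Myc, Gadd45b, Hspa1a and Hspb1 in the 6 classes compared; points are class sums of 1 library each, bars their exact Poisson 95% intervals, orange conventional and blue No-Touch. Blue lies above orange in every class for Fos, Zfp36 and Myc and below it in every class for Gadd45b, while Hspa1a and Hspb1 differ in direction between classes.

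HSP70 and HSP110 proteins fold and rescue other proteins, and the set holds the constitutive Hspa8, the inducible pair Hspa1a and Hspa1b, and Hsph1, which exchanges nucleotide on HSP70. By class and library, Hspa8 was at 2164 and 2237 CPM in fibroblasts, 3014 and 2621 in pericytes, 2609.6 and 2369 in smooth muscle, 2226 and 2273 in blood endothelium, 2208 and 2351 in lymphatic endothelium and 1289 and 1187 in Schwann cells. Hspa8 was at 678 and 744 CPM in neutrophils, 1998 and 2928 in mononuclear phagocytes, 991 in conventional epithelial cells and 1725 in No-Touch T or NK cells. Hspa8 stayed within 1.15-fold in all 6 classes. The inducible genes did not. Hspa1a was at 552 and 406 CPM in fibroblasts, 1003 and 969.9 in pericytes, 849 and 1313 in smooth muscle, 479.6 and 960.2 in blood endothelium, 885 and 1786 in lymphatic endothelium and 848 and 522 in Schwann cells. It was higher in No-Touch smooth muscle and both endothelia and lower in No-Touch Schwann cells. Hspa1b was highest in lymphatic endothelium (1220.2 and 2021 CPM), higher there and in blood endothelium in No-Touch, and lower in No-Touch fibroblasts (544 and 355 CPM) and Schwann cells (451 and 201 CPM). Hsph1 had a ratio below 1 in 6 of 6 classes and passed 1.5-fold in fibroblasts (164 and 96.2 CPM), pericytes, smooth muscle and Schwann cells.

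J proteins hand clients to HSP70. Conventional first, Dnaja1 was at 540.4 and 701 CPM in fibroblasts, 831 and 759.9 in pericytes, 629 and 604 in smooth muscle, 584 and 704 in blood endothelium, 655 and 747 in lymphatic endothelium and 456 and 492 in Schwann cells. Dnaja1 was at 467 and 319 CPM in neutrophils, 535 and 475 in mononuclear phagocytes, 395 in conventional epithelial cells and 716 in No-Touch T or NK cells. Dnaja1 stayed within 1.5-fold throughout, and Dnajb1, the J protein most tied to HSF1, passed it in pericytes (515 and 341 CPM). Hsp90aa1 is the inducible cytosolic HSP90. In conventional and No-Touch grafts, Hsp90aa1 was at 976 and 737 CPM in fibroblasts, 1040.3 and 722 in pericytes, 973 and 859.8 in smooth muscle, 685 and 544 in blood endothelium, 925 and 1569 in lymphatic endothelium and 739 and 467 in Schwann cells. Hsp90aa1 was at 2373 and 358 CPM in neutrophils, 994 and 811 in mononuclear phagocytes, 756 in conventional epithelial cells and 530.2 in No-Touch T or NK cells. It was higher in No-Touch lymphatic endothelium and lower in No-Touch Schwann cells. Hspd1 and Hspe1, the 2 parts of the mitochondrial chaperonin, are made from 1 shared promoter region. Listed the same way, Hspe1 was at 392 and 298 CPM in fibroblasts, 345 and 260.3 in pericytes, 285 and 215 in smooth muscle, 298 and 257 in blood endothelium, 282 and 288 in lymphatic endothelium and 313 and 285 in Schwann cells. Hspe1 was at 68.6 and 35.1 CPM in neutrophils, 228 and 218 in mononuclear phagocytes, 274 in conventional epithelial cells and 403 in No-Touch T or NK cells. Hspe1 stayed within 1.5-fold in all 6 classes, and Hspd1 passed it in smooth muscle (215 and 141 CPM). Hspb1 is a small heat shock protein abundant in contractile cells. Conventional before No-Touch, Hspb1 was at 1126 and 429 CPM in fibroblasts, 1086 and 488 in pericytes, 1707 and 1750.4 in smooth muscle, 1350 and 877 in blood endothelium, 646 and 736 in lymphatic endothelium and 522 and 142 in Schwann cells. Hspb1 was at 170.2 and 117 CPM in neutrophils, 94.3 and 82.1 in mononuclear phagocytes, 590.1 in conventional epithelial cells and 67.9 in No-Touch T or NK cells. Smooth muscle had the most Hspb1 in both libraries and did not differ between them. Hspb1 was 2.62-fold lower in No-Touch fibroblasts, 2.22-fold lower in pericytes, 1.54-fold lower in blood endothelium and 3.68-fold lower in Schwann cells.

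Between the libraries, more of all genes passed 1.5-fold on the higher side than on the lower in No-Touch cells of each of the 6 classes. Members did the same in both endothelia. In pericytes and Schwann cells more members passed on the lower side. Fibroblasts had 4 higher and 5 lower members, and smooth muscle 5 and 7. With a 2-fold rule smooth muscle had 2 and 1, for which no share of all genes is given here. The share of all genes at 1.5-fold is given beside each count below. A gene was counted when it had at least 10 CPM in either library and was at least 1.5 times apart on the scale of CPM + 1. In fibroblasts 4 of 36 members that passed were higher and 5 lower in No-Touch, against 7.37% and 3.38% of all genes. Pericytes had 3 higher and 9 lower of 37, against 10.4% and 4.78%. In smooth muscle 5 were higher and 7 lower of 37, against 14.9% and 11%. Blood endothelium had 7 and 4 of 37, against 11.2% and 5.87%. Lymphatic endothelium had 10 and 2 of 36, against 9.61% and 7.17%. In Schwann cells 4 were higher and 9 lower of 35, against 13.1% and 8.29%. The median log2 ratio of the immediate early genes that passed lay between -0.09 (fibroblasts) and 0.37 (smooth muscle), and that of the heat shock genes between -0.51 (Schwann cells) and 0.19 (lymphatic endothelium). The median over all genes was 0.00 to 0.08. Markers of other classes moved too: smooth muscle markers summed to 222 and 502 CPM in blood endothelium, fibroblast markers to 1552 and 2925 CPM in Schwann cells, and pericyte markers to 4127 and 2590 CPM in smooth muscle. Their part in the counts was not tested.

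**Figure D3:**
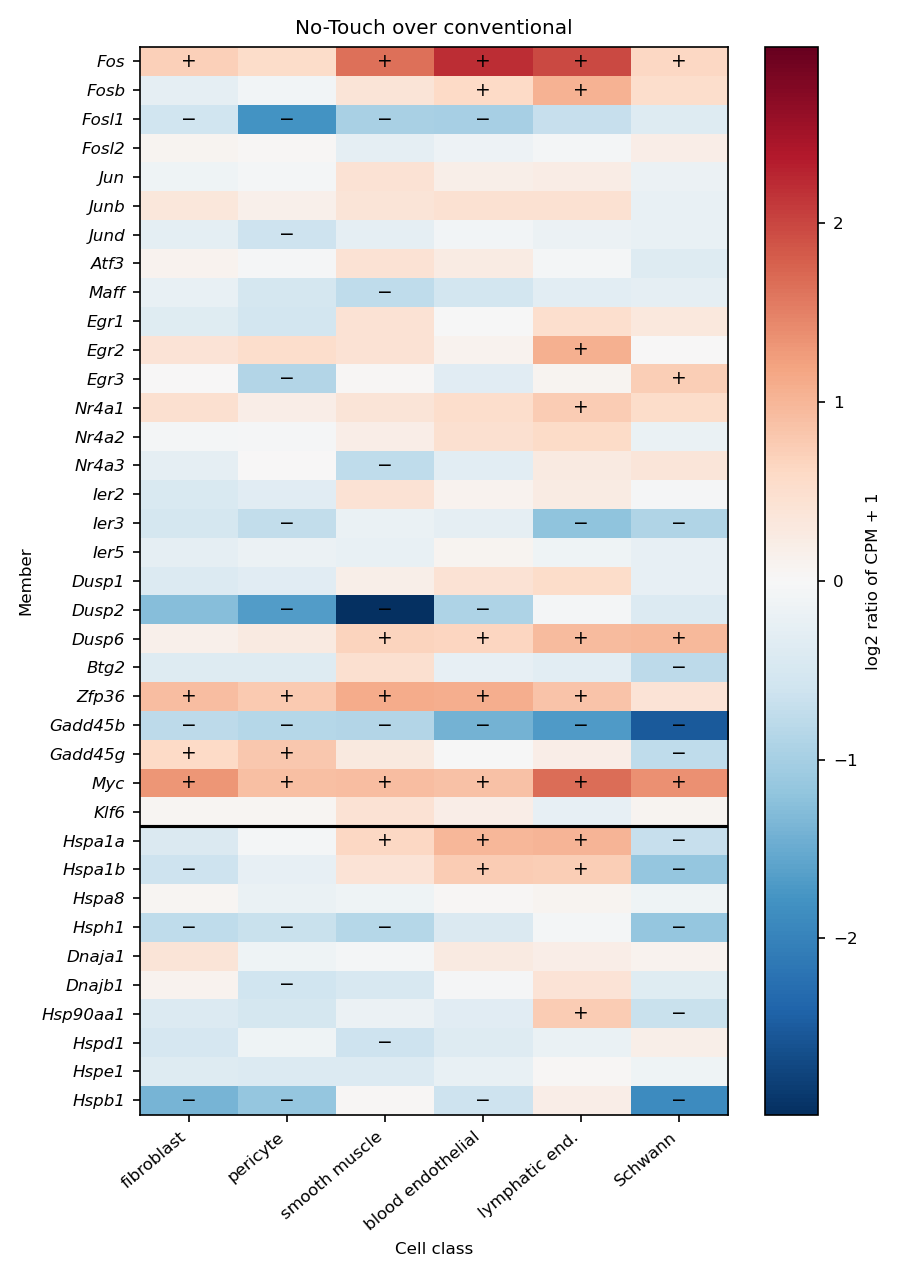
Log2 ratio of No-Touch over conventional, on CPM + 1, for the 37 genes (rows) in the 6 classes (columns); + and − mark members at least 1.5 times higher or lower with at least 10 CPM in either library, and the black line parts immediate early from heat shock genes. Rows for Fos, Zfp36 and Myc are red and the row for Gadd45b is blue in all 6 columns.

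The members at the ends of each class were named among those of at least 20 CPM in either library, 4 on each side. In fibroblasts the highest log2 ratios were those of Myc (1.32), Zfp36 (0.93), Fos (0.71) and Gadd45g (0.60), and the lowest those of Hspb1 (-1.39), Gadd45b (-0.79), Hsph1 (-0.76) and Hspa1b (-0.61). Pericytes had Myc (0.91), Gadd45g (0.80), Zfp36 (0.78) and Fos (0.55) at the top and Fosl1 (-1.78), Dusp2 (-1.67), Hspb1 (-1.15) and Egr3 (-0.87) at the bottom. In smooth muscle they were Fos (1.65), Zfp36 (1.10), Myc (0.93) and Dusp6 (0.67), against Dusp2 (-2.99), Fosl1 (-0.97), Gadd45b (-0.87) and Hsph1 (-0.84). Fos thus headed smooth muscle and both endothelia, and Myc the other 3 classes. Blood endothelium had Fos (2.20), Zfp36 (1.10), Hspa1a (1.00) and Myc (0.88), against Gadd45b (-1.42), Dusp2 (-0.92), Hspb1 (-0.62) and Maff (-0.55). Lymphatic endothelium had Fos (1.98), Myc (1.68), Egr2 (1.07) and Fosb (1.03), against Gadd45b (-1.69), Ier3 (-1.19), Maff (-0.32) and Btg2 (-0.31). Schwann cells had Myc (1.36), Dusp6 (0.98), Egr3 (0.74) and Fos (0.61), against Gadd45b (-2.50), Hspb1 (-1.87), Hspa1b (-1.16) and Hsph1 (-1.15). Only Myc and Gadd45b passed 1.5-fold in the same direction in 6 of 6 classes, against 1.11% of 6910 genes at 10 CPM in all 6 classes on the higher side and 0.521% on the lower side. Ratios were above 1 in 6 of 6 classes for Dusp6, Egr2, Fos, Myc, Nr4a1 and Zfp36 (20.1% of all genes) and below 1 for Gadd45b, Hsph1, Ier3, Jund and Maff (10.5%). The classes share their library and so its free RNA.

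The cells of each sex gave a further comparison. In conventional fibroblasts Fos was at 3047 CPM in the Xist cells, 2819 in the Y-linked cells and 4559.8 in the Y-linked cells of the No-Touch library. Zfp36 was at 2000 CPM in the Xist cells, 1693 in the Y-linked cells and 3272 in No-Touch. Myc was at 106 CPM in the Xist cells, 102 in the Y-linked cells and 252 in No-Touch. Gadd45b was at 2126 CPM in the Xist cells, 2129.6 in the Y-linked cells and 1220.1 in No-Touch. These 4 genes are shown because their libraries differed. Other members differed between the 2 sets of conventional cells, most of all Nr4a3, which was at 40.1 CPM in the Xist cells, 75.7 in the Y-linked cells and 56.8 in No-Touch, and Nr4a2, at 65.5 CPM in the Xist cells, 114 in the Y-linked cells and 102 in No-Touch. The heat shock sum was 5922 CPM in the Xist cells, 7284 in the Y-linked cells and 5863 in No-Touch, and Hspb1 was at 832 CPM in the Xist cells, 1164 in the Y-linked cells and 423. With Y-linked cells alone in both libraries, a comparison chosen after the data were seen, Myc was at least 1.5-fold higher and Gadd45b at least 1.5-fold lower in 6 of 6 classes, of which conventional Schwann cells then held 70 cells, under the minimum of 100 set for a compared class. Fos and Zfp36 had ratios above 1 in 6 of 6 classes and passed 1.5-fold in 5 of 6. Of all members 3 were then higher and 5 lower in fibroblasts, against 7.46% and 3.37% of all genes, and 4 and 8 in pericytes, against 11% and 4.92%. Smooth muscle had 4 and 7, against 15.3% and 10.2%, and blood endothelium 8 and 4, against 11.8% and 6.41%. Lymphatic endothelium had 10 and 2, against 10.7% and 7.52%, and Schwann cells 3 and 8, against 16.9% and 10.7%.

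Fibroblasts were then split into 13 clusters, made without the 37 genes and the wider lists, to see whether the ratios hold within a cluster. The libraries filled different clusters: 28% of conventional fibroblasts were in cluster 2 (led by Mmp13, Spp1) and 44.5% in cluster 1 (Cxcl13, Saa3), while 30.6% of No-Touch fibroblasts were in cluster 12 (Kcnj8, Abcc9, Gdf10) and 21.8% in cluster 9 (Pla1a, Sema3c). Xist was itself among the 5 leading genes of clusters 1 and 2. Kcnj8 and Abcc9 are also on the pericyte marker list, whose 7 genes summed to 193 and 221 CPM in the fibroblast class against 8291 CPM in conventional pericytes. Immediate early sums spanned 16243 to 51849.8 CPM over 9 conventional clusters and 18369.8 to 47101 CPM over 8 No-Touch ones. Cluster 7 (Crabp2, Csf2) was low in both libraries, with 16243 and 18616 CPM, as was the conventional cluster 0 (Serpinb2, Il1rl1), with 20008 CPM. The lowest No-Touch sum was that of cluster 10. These sums were mostly lower in deeper clusters. Median UMIs were 34552 and 55820 in cluster 7 and 37346 in cluster 0, above the 19679 and 31520 of all fibroblasts. The No-Touch cells of cluster 10 were an exception, with a low sum and a median of 6149.5 UMIs. Across fibroblasts thinned to 5000 UMIs, the immediate early sum correlated with UMIs before thinning at -0.37 in the conventional library and -0.49 in No-Touch (Spearman). With fibroblasts of each library cut into 4 equal bins of UMIs per cell, the immediate early sum went from 44305.5 CPM in the shallowest to 26930 CPM in the deepest conventional fibroblasts, and from 49080.5 to 26167 CPM in No-Touch ones, whereas the heat shock sum went from 6705 to 7087 and from 7115 to 5113 CPM. Fos and Zfp36 were higher and Gadd45b lower in No-Touch in each of the 4 bins. The part of cell size or depth in the immediate early level was not tested.

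**Figure D4:**
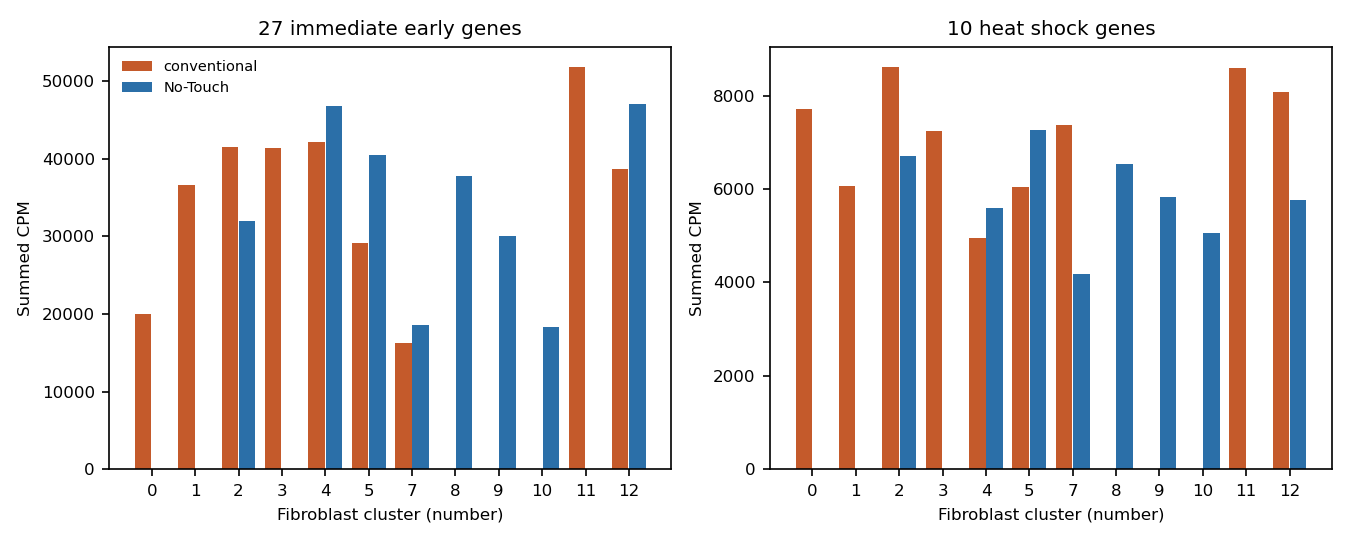
Summed CPM of the 27 immediate early genes (left) and the 10 heat shock genes (right) by fibroblast cluster, for clusters with at least 50 cells in a library; bars start at 0, orange conventional and blue No-Touch. Clusters 0, 7 and 10 have the lowest immediate early bars and cluster 11 the highest, while the heat shock bars vary less.

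In the 5 clusters with at least 50 cells of each library (2, 4, 5, 7 and 12), Fos, Zfp36 and Nr4a1 had ratios above 1 in 5 of 5, with log2 ratios of 0.23 to 1.30 for Fos and 0.54 to 1.56 for Zfp36. Clusters 4, 5, 7 and 12 held 110, 134, 112 and 80 conventional cells, and cluster 2 held 122 No-Touch cells. Cluster 1, with 44.5% of conventional fibroblasts, and clusters 8 and 9, with 14.1% and 21.8% of No-Touch ones, could not be compared. Myc was higher in 4 of 5, with -0.05 in the remaining cluster. Gadd45b (-1.60 to -0.23), Ier3, Hsph1 and Hspb1 (-2.01 to -0.52) had ratios below 1 in 5 of 5. The share of all genes with 1 direction in 5 of 5 clusters was not counted, here or with the finer clusters below. Junb, within 1.5-fold in the whole class (0.33), passed it in 3 of 5 clusters, with a median log2 ratio of 0.75. Egr1 turned direction: -0.36 in the class and 0.12 as the median of the clusters. Hspa1a was mixed, with -1.16 to 0.63. With finer clusters (resolution 1.0 in place of 0.5, again 5 with 50 cells of each library) the directions of Fos, Zfp36, Nr4a1, Gadd45b, Ier3, Hsph1 and Hspb1 held in 5 of 5, and Myc was higher in 5 of 5. Junb was not stable: it then passed 1.5-fold in 2 of 5, with a median of 0.23. Cluster 11 had the mesothelial marker Wt1 among its 10 leading genes. It had no fibroblast marker there, which held for other clusters too, such as 2 and 9. Cluster 10 was led by the secretory genes Scgb1b27 and Bpifa2. Both 10 and 11 stay unnamed. Clusters 10 and 11 held 0.789% and 1.93% of conventional and 2.76% and 0.112% of No-Touch fibroblasts. Without them, an alternative also added after the data were seen, 4 members were higher and 4 lower in the class, against 7.28% and 3.36% of all genes.

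Single cells showed how evenly each member was spread over fibroblasts. Each fibroblast was thinned to 5000 UMIs, which left out 149 conventional and 142 No-Touch cells. The 10% of conventional fibroblasts with the most UMIs of a gene held 60.4% of Hspa1a UMIs (mean 2.9 per cell) but 28.7% of those of Ier5, at a like mean of 2.59. For Hspb1 the share was 53.4% (mean 5.63), and for Btg2 30.6% (mean 4.85). The sets overlapped, however: at the mean of Btg2, Gadd45g had 44.5% and Hsp90aa1 42.9%, and at lower means Nr4a1 had 42.9% and Dnaja1 36.2%. In No-Touch fibroblasts it was 59.4% for Hspa1a and 30.5% for Ier5. Hspa1a had a median of 1 UMI and reached 77 and 90 UMIs in single cells of the conventional and No-Touch library. The constitutive Hspa8 was even, at 24.2%. The immediate early genes together had medians of 189 and 188 UMIs of 5000 per fibroblast.

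**Figure D5:**
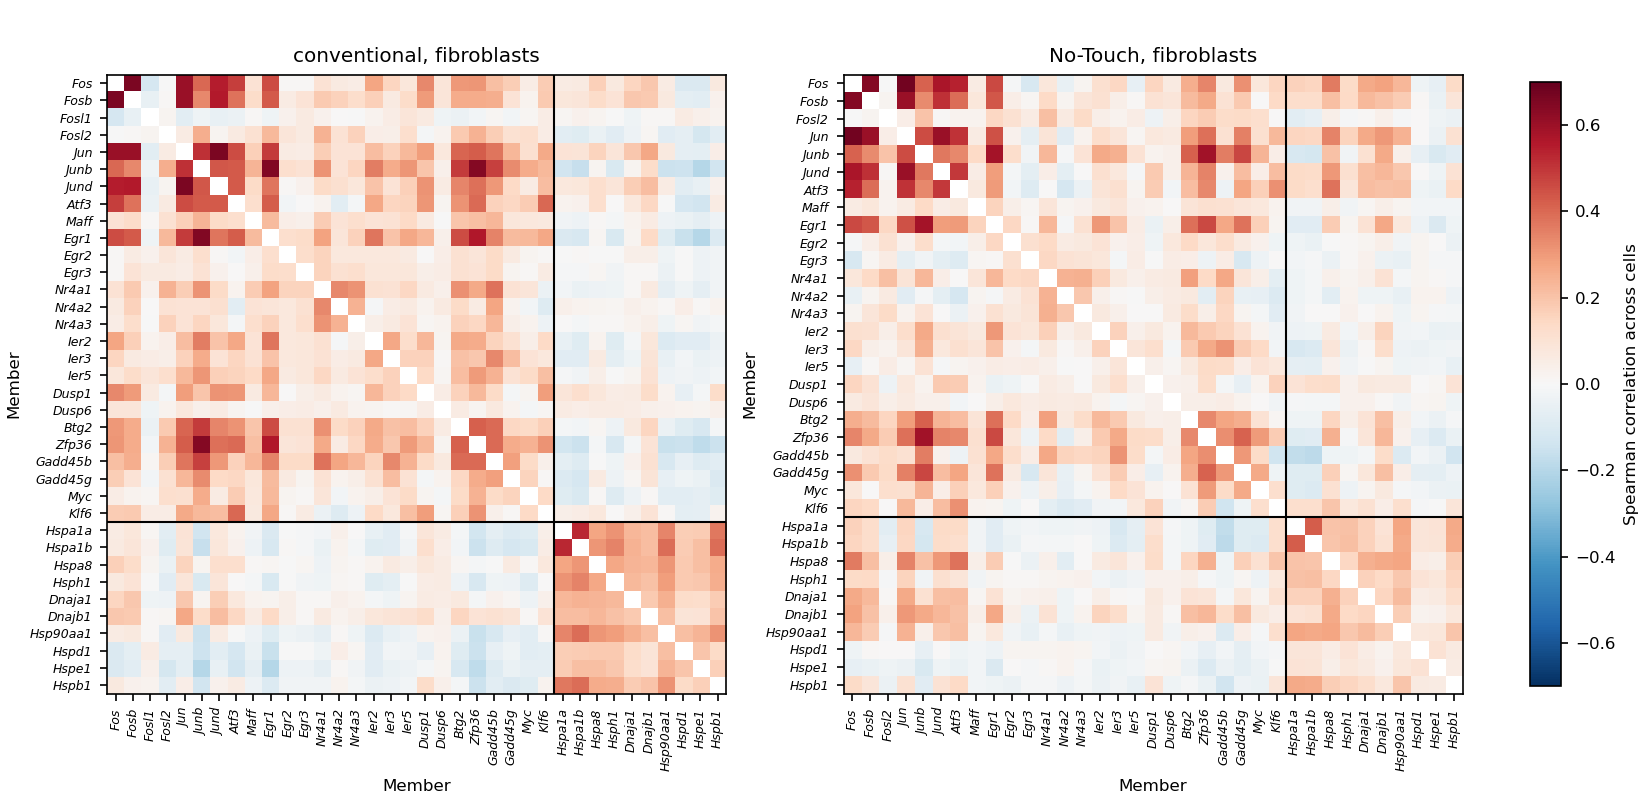
Spearman correlation across fibroblasts thinned to 5000 UMIs, for members with a UMI in at least 10% of cells; left conventional (5808 cells), right No-Touch (7910 cells), black lines part immediate early from heat shock genes. The strongest positive pairs lie within the sets, and pairs between them have a median near 0.

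How far members varied together differed between pairs, and how far the 2 sets did so differed between classes. The correlations describe cells of 1 library, which share depth and free RNA, and carry no p. In conventional fibroblasts the highest were Jun with Jund (Spearman 0.66), Fos with Fosb (0.66), Junb with Egr1 (0.65) and Junb with Zfp36 (0.64), and in No-Touch fibroblasts Fos with Jun (0.68). Hspa1a and Hspa1b correlated at 0.53 and 0.43 in fibroblasts, and at 0.59 and 0.76 in lymphatic endothelium. The median over heat shock pairs was 0.22 and 0.14, that over immediate early pairs 0.12 and 0.08, and that over pairs between the sets -0.0038 and 0.0039. Fos with Hspa1a was at 0.06 and 0.16 in fibroblasts but at 0.43 and 0.56 in pericytes and 0.45 and 0.48 in smooth muscle. The summed sets correlated at 0.09 and 0.39 in fibroblasts, 0.38 and 0.57 in pericytes and 0.35 and 0.47 in smooth muscle. For blood endothelium they were 0.11 and 0.19, and for lymphatic endothelium 0.28 and 0.45.

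The wider pathways were read from 3 lists, and their counts stand beside the shares of all genes that passed the same rule: 7.37% higher and 3.38% lower in fibroblasts, 10.4% and 4.78% in pericytes, 14.9% and 11% in smooth muscle, 11.2% and 5.87% in blood endothelium, 9.61% and 7.17% in lymphatic endothelium and 13.1% and 8.29% in Schwann cells. Of 45 other immediate early and feedback genes, 8 were higher and 5 lower of 42 that passed in fibroblasts, 8 and 2 of 44 in pericytes, 7 and 6 of 44 in smooth muscle, 11 and 4 of 42 in blood endothelium, 5 and 7 of 43 in lymphatic endothelium and 8 and 7 of 43 in Schwann cells. Ccn1, a matricellular target of SRF and YAP, was higher in No-Touch pericytes (log2 ratio 1.03), smooth muscle (1.85), blood endothelium (2.19, 131 and 599.9 CPM) and lymphatic endothelium (1.42). Nfkbiz, an NF-kB cofactor, was lower in fibroblasts (-1.28, 1138 and 469 CPM), pericytes (-1.38), smooth muscle (-1.27) and Schwann cells (-1.37). The other largest ratios in fibroblasts were those of Spry2 (1.17), Socs3 (1.00) and Bhlhe40 (0.98). They were Ier5l (0.92) and Gadd45a (0.90) in pericytes, and Ier5l (1.13) and Phlda1 (-1.09) in smooth muscle. Blood endothelium had Tiparp (-1.38), Ccn2 (1.17) and Socs3 (0.98), and lymphatic endothelium Spry4 (-1.35), Ier5l (0.91) and Dusp4 (-0.84). Schwann cells had Spry2 (1.62), an inhibitor of ERK signalling, Tiparp (-1.19) and Rnd3 (1.06).

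Of 40 other heat shock response and chaperone genes, 0 were higher and 2 lower of 38 in fibroblasts, 1 and 2 of 39 in pericytes, 3 and 2 of 40 in smooth muscle, 3 and 2 of 39 in blood endothelium, 1 and 3 of 38 in lymphatic endothelium and 2 and 2 of 38 in Schwann cells, to be read against the same shares of all genes. The largest ratios in fibroblasts were those of the small heat shock gene Cryab (-0.87), Fkbp4 (-0.64), Dnajb4 (0.55) and Dnaja4 (-0.54). Pericytes had Hspa4l (-0.74), Dnajb4 (0.72), Cryab (-0.64) and Hspa13 (-0.43). Smooth muscle had Dnajb5 (1.59), Hspb6 (1.14), Hspa9 (-0.73) and Dnajb4 (0.66). In blood endothelium they were Dnajb4 (0.75), Dnajb2 (-0.63), Stip1 (-0.61) and Hsbp1 (0.61), and in lymphatic endothelium Dnajb2 (-0.71), Stip1 (-0.69), Dnajb4 (0.64) and Fkbp4 (-0.59). Schwann cells had Hspb8 (1.04), the factor Hsf1 itself (0.80, 18.5 and 32.9 CPM), Dnajb2 (-0.79) and Cryab (-0.60). Dnajb4 was thus among the 4 largest in 5 of 6 classes, always with a ratio above 1.

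The 11 genes of the ternary complex factors and ERK pathway, the machinery upstream of immediate early genes, were counted too: 1 was higher and 0 lower in fibroblasts, 0 and 0 in pericytes, 1 and 2 in smooth muscle, 0 and 0 in both endothelia and 1 and 0 in Schwann cells. Elk4, a ternary complex factor, had the largest ratio in fibroblasts (0.60) and in Schwann cells (0.85), and was at 0.36 and 0.36 in blood and lymphatic endothelium. The kinase Map2k1 was at 0.29 in fibroblasts, 0.58 in pericytes, 0.62 in smooth muscle, 0.50 in blood endothelium and 0.51 in lymphatic endothelium. Mapk3 was at -0.24 in pericytes and 0.23 in Schwann cells. Mapk8, the kinase JNK1, was at -0.22 in fibroblasts, -0.78 in smooth muscle, -0.37 in blood endothelium and 0.36 in Schwann cells. The SRF cofactors Mrtfa (-0.30 in pericytes, -0.68 in smooth muscle) and Mrtfb (-0.44 in smooth muscle, -0.57 in lymphatic endothelium) had ratios below 1. Elk3 was at 0.35 in blood endothelium, and Creb1 at -0.33 in lymphatic endothelium.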

How the data were processed

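Single-cell 3' RNA-seq was read from 2 libraries, 1 of conventional and 1 of No-Touch vein grafts. The authors deposited UMI counts per gene and cell barcode, made with Cell Ranger against mm10 per the submitters' processing notes, which name version 3.1.0, while the file headers name 6.0.0. The kit is v2 or v3 per the labels' protocols. The gene and barcode lists deposited by the authors hold names and no measurement. Totals were 200851272 and 373319906 UMIs over 11899 and 12450 barcodes.

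Barcodes were kept at 500 genes or more, 1000 UMIs or more and a mitochondrial share of up to 10%. Scrublet's own threshold marked 2.26% and 0% of cells, so it had not worked in the No-Touch library, and the highest-scoring 9.52% and 9.96% were removed, at 0.8% per 1000 barcodes. Classes were set by a per-cell score on marker lists. UMIs were summed per class and library and divided by the class total (CPM), and ratios were taken on log2 of CPM + 1. No test was run, since each group has 1 library. Python 3.11.15, scanpy 1.11.5, scipy 1.17.1 and, for TMM scaling, edgeR 4.0.16 were used. On simulated counts with 200 genes changed 2-fold, 200 were recovered in fibroblasts and 192 in Schwann cells, where 85 of 6575 unchanged genes also passed 1.5-fold. Both simulated libraries were drawn from the conventional profile with counting error alone. The simulation thus checks the calculation and does not show how reliable calls between the 2 libraries are.

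Values in every class were printed for the member with the highest CPM of each of 12 roles, and in each class the 4 highest and 4 lowest ratios among members of at least 20 CPM. Of each wider list the 4 largest ratios per class at 20 CPM were named. 1 gene that this rule names is not reported here. Other members were named for their counts or direction after their values were seen. The members and lists were chosen with earlier results of these data known. Promoter and gene sequences are from RefSeq and the annotation of GRCm38.p6. Some members overlap a gene on the opposite strand, such as Jun with Junos, Junb with Prdx2 and Hspa1a with Gm20481. Any effect on their counts was not tested.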

Additional observations from a re-analysis of the deposited data

Results flagged for a closer look

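Of the 37 genes, 5 passed 1.5-fold on the higher side in No-Touch cells of one class and on the lower side in another. The share of all genes that did so was not counted, so this count is not read as special to the set. With 1 library per group the difference between classes was not tested. Hspa1a, the inducible HSP70, had log2 ratios of 0.63 in smooth muscle, 1.00 in blood endothelium and 1.01 in lymphatic endothelium, against -0.70 in Schwann cells. Its near-identical copy Hspa1b had 0.75 in blood endothelium and 0.73 in lymphatic endothelium, against -0.61 in fibroblasts and -1.16 in Schwann cells. Hsp90aa1 had 0.76 in lymphatic endothelium and -0.66 in Schwann cells, so 3 heat shock genes were higher in No-Touch lymphatic endothelium and lower in No-Touch Schwann cells. Hspa1a and Hspa1b are among them, and the split of reads between this pair is uncertain, so they may not be separate readings. With Y-linked cells alone, chosen after the data were seen, Hsp90aa1 was at 0.61 and -0.58 in these classes, so it no longer passed 1.5-fold in Schwann cells. Hspa1a then passed on the higher side in 2 classes in place of 3, Hspa1b in 1 in place of 2, and Gadd45g in 1 in place of 2. The numbers of classes on the lower side for these genes, and on both sides for Egr3, stayed the same. Gadd45g had 0.60 in fibroblasts and 0.80 in pericytes, against -0.75 in Schwann cells. Egr3 had 0.74 in Schwann cells and -0.87 in pericytes.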

How the results depend on the processing

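No paired analysis was possible because each group has 1 library, and for the same reason no replicate could be left out. Of the 50 named ratios past 1.5-fold, 588 of 608 values under the alternatives stayed past it in the same direction, 19 kept the direction within 1.5-fold, and 1 reversed: Dusp6 in smooth muscle was at -0.10 with classes from Leiden clusters. Of the 60 named ratios within 1.5-fold, 709 of 730 values stayed within it. Both totals include the settings with no low-value filter and with a filter of 50 CPM. These settings cannot move a ratio, so their agreement was fixed in advance. Myc was higher and Gadd45b lower by 1.5-fold in 6 of 6 classes under each alternative except the 2-fold rule, which 3 of 6 classes met for each. With the 2-fold rule 1 member was higher and 1 lower in fibroblasts, 0 and 3 in pericytes and 2 and 1 in smooth muscle. Blood endothelium then had 3 and 1 and Schwann cells 1 and 4. Lymphatic endothelium had 5 higher, and Ier3 (log2 ratio -1.19) and Gadd45b (-1.69) lower. The shares of all genes under the 2-fold rule and the alternatives below are not printed here. These counts show how calls move with the setting and are not read as a result about the members. With the mean of CPM per cell, 5 members were higher in pericytes and 8 in Schwann cells, and the immediate early medians reversed to 0.012 and 0.14 in these classes. With cells thinned to 5000 UMIs, 5 were higher in pericytes and the Schwann immediate early median reversed to 0.073. With TMM scaling the blood endothelial immediate early median reversed to -0.0081. TMM moved the median of all genes by -0.105 in pericytes and -0.118 in blood endothelium. Leiden classes left 4 members lower in pericytes, and a stricter gate left 4 higher in blood endothelium. With 1 mismatch allowed the heat shock element was in 7 heat shock genes. The cause of these shifts was not tested. Low members such as Fosl1, and Dusp2 outside endothelium, rest on few UMIs.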
